A study of Rattus norvegicus with 16 samples.

Results

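Lcn2, Serpina3n and Spp1 were followed here as 3 genes that stood among the largest measured rises between Sham rats and rats with traumatic brain injury (TBI) in the hippocampus. They were selected on those measured values, so comparisons that use the TBI or Sham arrays are described without a test. Their probes were found by exact match of the gene name on the array, with control spots left out, and each gene had 1 probe. These are 3 of the 17338 genes that could be given a current symbol on the array and 3 of its 30367 probes.

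Gene expression was measured on single-colour Agilent arrays, each of which held RNA from the microdissected hippocampus of 1 Sprague-Dawley rat. The rats were adult males according to the methods. Naïve rats (n = 3) were neither injured nor treated, and Sham rats (n = 2) were anaesthetised and prepared for the injury but not struck. TBI rats (n = 3) received a severe fluid percussion injury, in which a fluid pulse is driven against the exposed dura, and their hippocampi were taken 24 h later, as were those of the Sham rats. The 3 drug groups carried the same injury as the TBI rats. TBI+JM6 rats (n = 3) received JM6, an experimental compound directed against kynurenine 3-monooxygenase, and TBI+PMI-006 rats (n = 3) received the experimental compound PMI-006, both by oral gavage. TBI+E33 rats (n = 2) received E33, an estradiol treatment, which the labels give as subcutaneous and the methods as intraperitoneal. Whether the TBI rats of these arrays received a vehicle was not stated. The methods give 3 rats for every group, and 2 Sham and 2 TBI+E33 arrays were analysed here.

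All signals are given as log2 of the probe's intensity over the 75th percentile of the probes well above background on the same array, so that a value of 0 lies at that percentile. The scanner software marks a spot as well above background (gIsWellAboveBG) when its signal clears the local background by a margin set from the background's own spread. The Naïve, Sham and TBI arrays were scanned in one session with 16282 to 18245 probes well above background, and the 8 drug-group arrays in another with 20259 to 24984. With this scaling the median of the tested probes was 0.79 to 1.08 higher on the log2 scale in the drug groups than in TBI and 0.92 to 1.18 higher than in Naïve rats, against shifts of -0.03 to 0.06 among the Naïve, Sham and TBI groups. Session and drug treatment cannot be told apart. Of 9 hippocampal marker genes detected on any array, 7 to 9 were well above background on each array, and of 10 neuron markers 9 or 10. Summed markers of the choroid plexus, the epithelium of the adjoining ventricle, stood apart on the Naïve 2, Sham 1 and TBI+PMI-006 1 arrays at 78.2, 124 and 156 times the 75th percentile.

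All 3 genes encode secreted proteins that are known from injured and inflamed tissue. Lcn2 encodes lipocalin 2, which binds iron-carrying bacterial siderophores and is made by neutrophils, epithelia and reactive astrocytes. Serpina3n encodes a serine protease inhibitor related to human alpha-1-antichymotrypsin and is a widely used marker of reactive astrocytes. Spp1 encodes osteopontin, a matrix phosphoprotein that binds integrins and CD44 and is made by activated microglia and macrophages. Cytokine signalling through STAT3 and NF-kB is known to act on acute phase genes of this kind.

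The probe sequences are shown because every value below rests on them, with the first 30 bases given for Lcn2 and Serpina3n and all 60 for Spp1. The probe of Lcn2 (A_42_P638620, for NM_130741) lies on the minus strand of rn4 at chr3:11511592-11511651. The probe of Serpina3n (A_44_P1000653, for NM_031531) lies on the plus strand at chr6:128469197-128469256. The probe of Spp1 (A_44_P491796, for NM_012881) lies on the minus strand at chr14:6422382-6422441, and it was printed in 10 spots on each array, where the other probes had 1 spot each. Exon borders of this build were not used here.
Lcn2: caatgcattgacaactgaacagacggtgag
Serpina3n: ctacttagagcaatgcagcctttcttttag
Spp1: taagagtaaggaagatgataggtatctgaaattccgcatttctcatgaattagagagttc

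The 250 bases before the annotated start of each gene are shown because the 3 genes were high in the same rats. They were taken from RefSeq on the GRCr8 build, at chr3:36081781-36082030 on the minus strand for Lcn2, at chr6:129088142-129088391 on the plus strand for Serpina3n and at chr14:5619805-5620054 on the minus strand for Spp1. Capitals mark matches, on either strand, to the STAT-type motif TTCNNNGAA, the AP-1 motif TGANTCA, the C/EBP-type motif TTNCNNAA or the NF-kB consensus.
Lcn2: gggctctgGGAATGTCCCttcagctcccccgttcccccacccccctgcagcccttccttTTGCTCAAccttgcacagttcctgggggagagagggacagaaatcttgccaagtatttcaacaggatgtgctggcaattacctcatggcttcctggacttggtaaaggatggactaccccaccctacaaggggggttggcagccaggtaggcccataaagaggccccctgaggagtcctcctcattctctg
Serpina3n: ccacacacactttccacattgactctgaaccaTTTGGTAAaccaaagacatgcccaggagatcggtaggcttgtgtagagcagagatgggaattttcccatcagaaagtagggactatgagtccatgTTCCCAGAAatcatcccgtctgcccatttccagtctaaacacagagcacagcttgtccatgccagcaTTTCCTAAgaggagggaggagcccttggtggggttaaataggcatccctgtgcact
Spp1: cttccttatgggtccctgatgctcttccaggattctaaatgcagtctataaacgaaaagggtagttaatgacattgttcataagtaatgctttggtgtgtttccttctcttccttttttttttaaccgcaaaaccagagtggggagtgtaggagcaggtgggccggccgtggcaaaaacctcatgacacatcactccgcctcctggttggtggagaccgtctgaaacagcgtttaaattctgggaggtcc
The Lcn2 window held 1 NF-kB match, which began 242 bases before the start, and 1 C/EBP-type match at 191 bases. The Serpina3n window held 1 STAT-type match at 123 bases and C/EBP-type matches at 218 and 56 bases. In the Spp1 window none of these 4 motifs was found, and no motif was found in all 3 windows. Among 33469 windows of this length, the NF-kB consensus was found in 3.54%, the STAT-type motif in 7.67%, the AP-1 motif in 6.34% and the C/EBP-type motif in 37.2%. No 2 of these matches overlapped, and a match describes letters only.

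Lcn2 was well above background on 16 of 16 arrays and separated injured from uninjured rats without overlap. Its log2 signal was -5.04, -2.75 and -3.94 in the Naïve rats, -3.91 and -3.94 in the Sham rats and 1.25, 4.55 and 4.51 in the TBI rats. The TBI mean was 3.43 ± 1.90 (SD, n = 3), which was 164-fold above the Sham mean of -3.93 ± 0.02 (n = 2) and 163-fold above the Naïve mean of -3.91 ± 1.14 (n = 3). Sham and Naïve rats overlapped, with a difference of -0.01 between their means. Among uninjured rats Lcn2 was highest in Naïve 2, one of the 3 arrays with high choroid plexus markers, whose part in this value was not tested. In whole tissue, more cells that express a gene and more RNA per cell cannot be told apart, which holds for all 3 genes.

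Lcn2 stayed high in every drug-treated rat. The values were 3.68, 4.35 and 3.36 in TBI+PMI-006, 4.2, 3.49 and 3.03 in TBI+JM6 and 4.30 and 4.54 in TBI+E33 rats. The lowest of these 8 rats, TBI+JM6 3, was above TBI 1 and below the other TBI rats. The group means ran upwards in the order Sham, Naïve, TBI, TBI+JM6, TBI+PMI-006 and TBI+E33, and apart from the step of 7.35 between Naïve and TBI, each pair of neighbours overlapped.

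Serpina3n was close to the floor of the array in uninjured rats. It was well above background on 0 of 3 Naïve arrays, on 1 of 2 Sham arrays and on all 11 arrays of injured rats. The log2 signal was -8.02, -7.99 and -7.96 in Naïve rats, at intensities of 5.14 to 5.82 units, and -8.08 and -3.28 in the Sham rats. In TBI rats it was -0.26, 2.16 and 2.46, at intensities of 1186 to 8933 units. The TBI mean of 1.45 ± 1.49 (SD, n = 3) was at least 181-fold above Naïve rats, as a bound set by the dimmest probes well above background on the Naïve arrays. This bound, like all those below, holds only for the scaling and background subtraction used here. The measured difference from Sham was 7.13 on the log2 scale, of which the background signal of Sham 1 is a part, and with Sham 1 at its floor TBI was at least 71.3-fold higher. Sham 2 was at least 7.19-fold above Sham 1. The measured difference was 4.73 without Sham 1 and 9.53 without Sham 2, where the bound was 7.58.

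The drug-treated rats had Serpina3n values of 2.74, 2.60 and 3.23 (TBI+PMI-006), 2.16, 2.78 and 4.42 (TBI+JM6) and 2.30 and 2.93 (TBI+E33). TBI+JM6 3, which had the lowest Lcn2 signal of these 8 rats, had the highest Serpina3n signal of all 16. All 3 TBI+PMI-006 arrays lay above all 3 TBI arrays, with a gap of 0.13, while the other drug groups overlapped with TBI. After quantile normalization TBI 3, at 13.34, lay above TBI+PMI-006 1 and 2, at 13.07 and 12.91, so the groups overlapped. The group means ran from Naïve through Sham, TBI, TBI+E33 and TBI+PMI-006 to TBI+JM6, and the Sham to TBI step was the only one between neighbours that did not overlap.

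Spp1 was well above background on 0 of 3 Naïve arrays, 2 of 2 Sham arrays and 11 of 11 arrays of injured rats. The Naïve values were -7.83, -6.40 and -6.88, and the Sham values were -5.88 and -3.04. On Sham 1 only 5 of the 10 spots of the probe were well above background, against 10 of 10 on Sham 2, where the signal was 7.19-fold higher. A probe was counted as well above background on an array when a share of at least 0.5 of its usable spots was. Sham 1 thus stood at the cutoff, near the floor. The TBI values were -0.42, 3.25 and 2.51, with a mean of 1.78 ± 1.94 (SD, n = 3). The difference from Sham was 6.24 on the log2 scale, 75.7-fold, with 4.82 without Sham 1 and 7.67 without Sham 2. With the Naïve arrays at their floor, the TBI mean was at least 227-fold above Naïve rats under the processing used here, and other processing gave less. Both Sham rats lay above all 3 Naïve rats, but Sham 1 only by 0.52 above Naïve 2, which had 3 of 10 spots well above background. The bound of at least 3-fold between the means rests mostly on Sham 2.

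Spp1 values were 2.12, 3.50 and 0.47 in TBI+PMI-006, 0.63, 3.17 and 2.92 in TBI+JM6 and 0.89 and 1.82 in TBI+E33 rats. The TBI, TBI+PMI-006 and TBI+JM6 groups each held rats with high and with low signal. The order of the means was Naïve, Sham, TBI+E33, TBI, TBI+PMI-006 and TBI+JM6, with overlap between each pair of neighbours from TBI+E33 upwards and none below it.

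**Figure D1:**
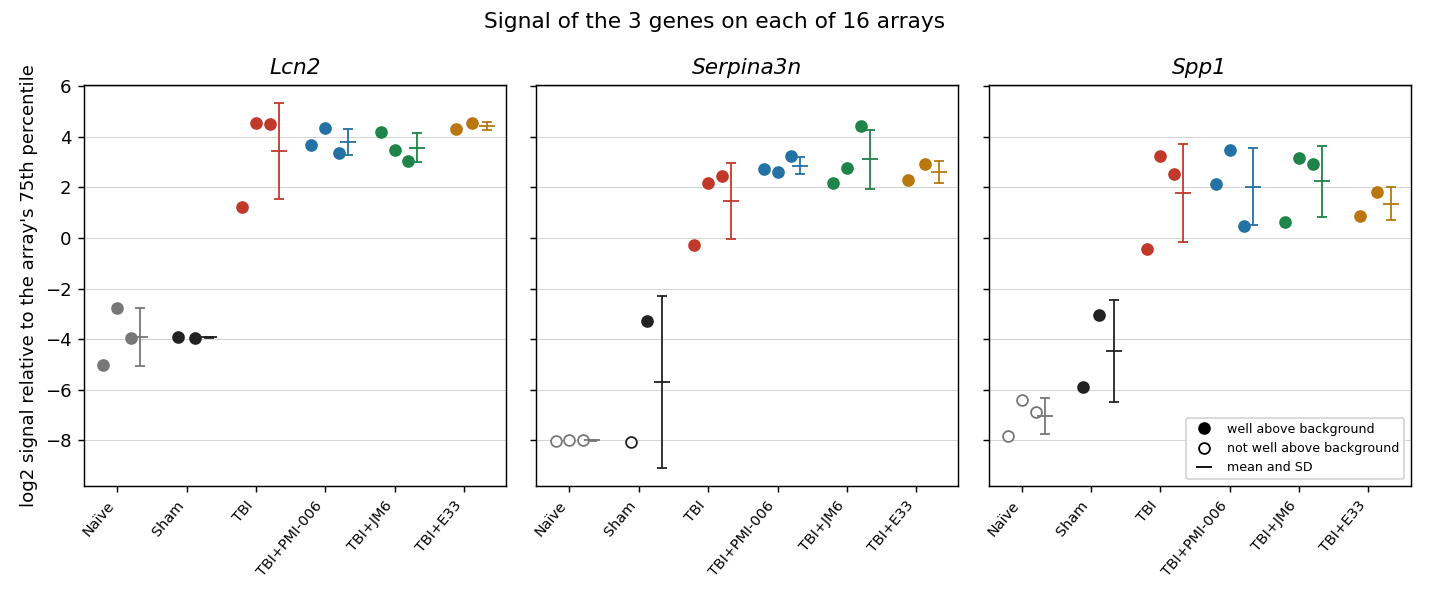
Log2 signal of Lcn2, Serpina3n and Spp1 relative to the array's 75th percentile, with 1 point for each of 16 rats and bars for the group mean and SD. Filled points are well above background and open points are not, and in each panel all 11 injured rats lie above all 5 uninjured rats.

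All 3 genes had every TBI array above every Sham array, as had 17.2% of the 22312 tested probes with a value on each of these arrays. The same held against Naïve arrays for 3 of 3 genes and 12.5% of probes, and for all injured against all uninjured rats for 3 of 3 genes and 5.36% of probes. These counts follow from how the genes were chosen, and nothing is read from them. The gap between the lowest injured and the highest uninjured rat was 4.0 for Lcn2, 3.02 for Serpina3n and 2.62 for Spp1 on the log2 scale. The rat just inside this gap was TBI 1 for each gene, and the rat below it was Naïve 2 for Lcn2 and Sham 2 for Serpina3n and Spp1.

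TBI 1 had the lowest signal of all injured rats for each of the 3 genes. Lcn2 was 9.91-fold and 9.58-fold higher in TBI 2 and TBI 3 than in TBI 1. Serpina3n was 5.37-fold and 6.60-fold higher, and Spp1 was 12.7-fold and 7.63-fold higher. Over 22622 tested probes the median difference from TBI 1 was 0.16 for TBI 2 and -0.03 for TBI 3, and 204 probes (0.902%) were at least 4-fold lower in TBI 1 than in both other rats. In the other direction, 74 probes (0.327%) were at least 4-fold higher in TBI 1 than in both. TBI 1 was nevertheless 16-fold, 8.10-fold and 6.14-fold above the highest uninjured rat for Lcn2, Serpina3n and Spp1. Without TBI 1, the differences from Sham on the log2 scale were 8.46, 7.99 and 7.34. Summed neutrophil markers were also lowest in TBI 1 among the TBI rats, at 0.368 against 3.03 and 1.41 times the 75th percentile, as were summed monocyte and macrophage markers, at 2.74 against 11 and 5.28. Genes common to reactive astrocytes had their lowest sum there too, at 18.6 against 43.4 and 43.7, while neuron markers (24.6 against 18.4 and 16.9), hippocampal markers (40.6 against 26.9 and 30.1) and oligodendrocyte markers (116 against 80.7 and 58.7) had their highest. The part of these cells in the 3 genes' signal was not tested.

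The spread between rats of a group differed between the genes. For Spp1 the SD in the TBI, TBI+PMI-006 and TBI+JM6 groups was 1.94, 1.51 and 1.40, each above the 95th percentile of the tested probes of the same group, which was 1.15, 0.93 and 0.87. For Lcn2 the SD was 1.90 in TBI, also above that percentile, but 0.51, 0.59 and 0.17 in the TBI+PMI-006, TBI+JM6 and TBI+E33 groups. For Serpina3n it was 1.49 in TBI, 0.33 in TBI+PMI-006, 1.17 in TBI+JM6 and 0.44 in TBI+E33, and those in TBI and TBI+JM6 were above the percentile. Among the uninjured groups the percentile was passed by Lcn2 in Naïve rats (1.14 against 1.02) and by Serpina3n and Spp1 in Sham rats (3.39 and 2.01 against 1.07). The 10 spots of the Spp1 probe give the spread within an array: their coefficient of variation was 4.09% to 30.7% on arrays of injured rats and 21% to 41.1% on the dim arrays of uninjured rats.

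**Figure D2:**
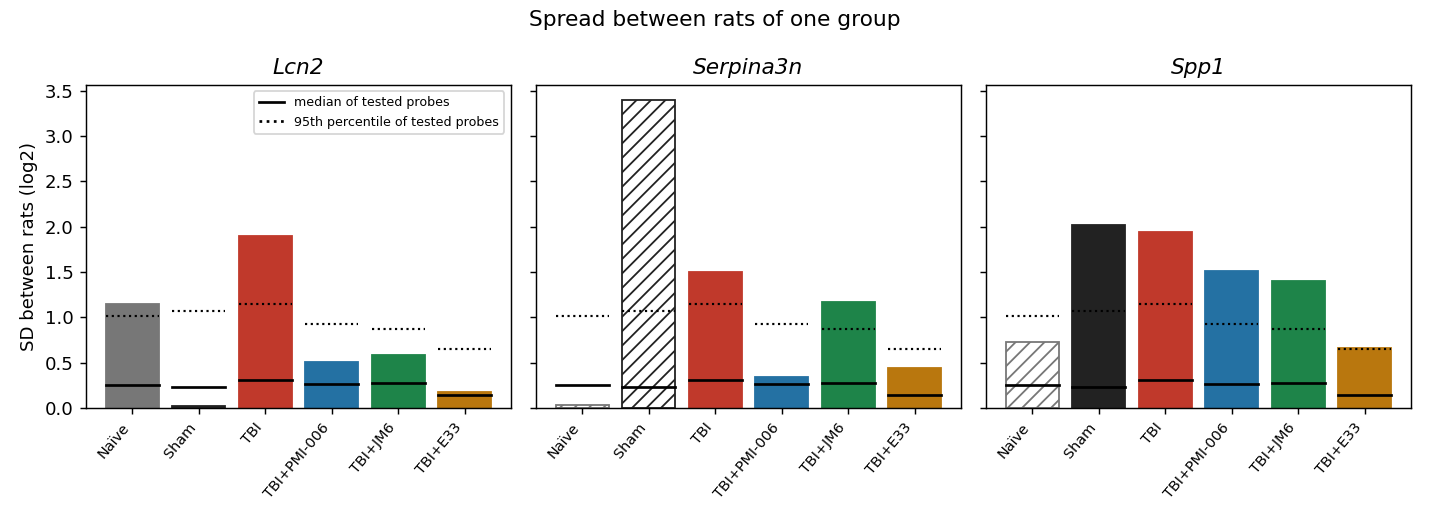
SD of the log2 signal between rats of each group for the 3 genes, as bars from 0. Solid and dotted black lines give the median and the 95th percentile of the SD of all tested probes in that group, hatched bars mark groups in which some array was not well above background, and for Spp1 the bars of all groups but Naïve reach above the dotted lines.

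Drug-treated rats were compared with Naïve rats, arms outside the contrast that chose the genes, to ask whether the signal was still raised under treatment. Limma called all 3 genes higher in each drug group. For TBI+PMI-006, where 62.1% of the 22827 tested probes were also called higher, the log2 differences were 7.71 ± 0.77 (SE) for Lcn2, 10.85 ± 1.01 for Serpina3n and 9.07 ± 1.07 for Spp1, with adjusted p-values of 8.89e-06, 5.81e-06 and 2.5e-05. For TBI+JM6, with 70.0% of probes called higher, they were 7.49 ± 0.77, 11.11 ± 1.01 and 9.28 ± 1.07, with adjusted p-values of 5.71e-06, 2.56e-06 and 1.22e-05. For TBI+E33, again with 70.0% of probes called higher, they were 8.33 ± 0.86, 10.61 ± 1.13 and 8.39 ± 1.19, with adjusted p-values of 8.01e-06, 9.65e-06 and 6.69e-05. Since Naïve rats had no array well above background for Serpina3n and Spp1, these fitted values and their p-values depend on background signal there. Serpina3n entered the test only through the injured groups, in which every array was well above background. Nothing beyond the bounds is read from its p-values. As bounds under the main scaling, Serpina3n was at least 478-fold, 573-fold and 405-fold higher than in Naïve rats in the TBI+PMI-006, TBI+JM6 and TBI+E33 groups, and Spp1 at least 270-fold, 312-fold and 169-fold. Lcn2, which was measured on both sides, was 209-fold, 179-fold and 323-fold higher. All these folds include the median shift of the tested probes, which was 0.92, 1.11 and 1.18 on the log2 scale. The compared groups were scanned in different sessions. After quantile normalization, which sets all arrays to one distribution, the log2 differences of Lcn2 were 6.90, 6.54 and 7.41. Those of Serpina3n and Spp1, 7.01 to 9.94, again depend on background signal in Naïve rats. Session and drug treatment cannot be told apart under this scaling either.

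Against TBI rats, the differences of the drug groups were close to or below the SD among the TBI rats, apart from Serpina3n in TBI+JM6. Lcn2 was 0.36, 0.14 and 0.99 higher on the log2 scale in TBI+PMI-006, TBI+JM6 and TBI+E33 than in TBI rats, against a median shift of all probes of 0.79, 0.99 and 1.08. Serpina3n was 1.40, 1.66 and 1.16 higher, which left 0.61, 0.67 and 0.09 above that median shift. Spp1 differed by 0.25, 0.46 and -0.43, which relative to the shift was -0.54, -0.54 and -1.51. After quantile normalization, the differences for PMI-006, JM6 and E33 were 0.14, -0.22 and 0.65 for Lcn2, 1.02, 1.17 and 0.62 for Serpina3n and -0.13, -0.06 and -0.98 for Spp1. The Lcn2 difference of TBI+JM6 and the Spp1 differences of TBI+PMI-006 and TBI+JM6 therefore changed sign with the scaling, while the 3 Serpina3n differences remained positive under both. The 3 comparisons share the TBI rats, TBI 1 among them.

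The drug groups were compared with each other to ask whether any treatment left the genes at another level. Limma called 0 of 3 genes in each of the 3 comparisons, and 0 of 3 passed an unadjusted p under 0.05 in this fit or in the methods' t-test, while Lcn2 and Spp1 did so in TBI+JM6 vs TBI+E33 with slide as a fixed block. Among all tested probes 0.0131% were called in TBI+JM6 vs TBI+PMI-006, 0.110% in TBI+E33 vs TBI+PMI-006 and 0.0175% in TBI+JM6 vs TBI+E33. At an unadjusted p under 0.05 limma passed 8.84%, 15.0% and 2.81% of them. The largest of the 9 differences were those of Spp1 (0.89, 95% confidence interval -1.70 to 3.47) and Lcn2 (-0.85, -2.71 to 1.01) in TBI+JM6 minus TBI+E33, with limma adjusted p-values of 1 for both. For Lcn2 all 3 TBI+JM6 rats lay below both TBI+E33 rats, with a gap of 0.10, but after quantile normalization TBI+JM6 1 (14.75) lay above TBI+E33 1 (14.70). For Serpina3n the differences were 0.26 (-1.92 to 2.44) for TBI+JM6 minus TBI+PMI-006, -0.24 (-2.67 to 2.20) for TBI+E33 minus TBI+PMI-006 and 0.50 (-1.94 to 2.94) for TBI+JM6 minus TBI+E33. The other differences were -0.22 (-1.88 to 1.44) and 0.62 (-1.24 to 2.48) for Lcn2 and 0.21 (-2.10 to 2.52) and -0.68 (-3.26 to 1.91) for Spp1, in TBI+JM6 and TBI+E33 minus TBI+PMI-006. With 2 or 3 rats a group, each interval of Serpina3n and Spp1 reached beyond a 4-fold difference in at least 1 direction, so the comparison does not show that the treatments left equal levels.

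**Figure D3:**
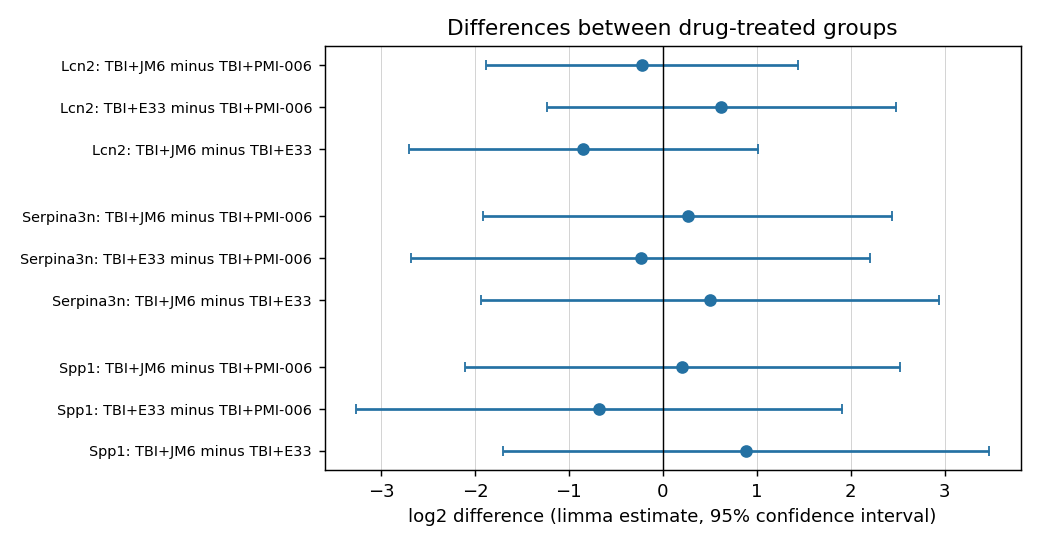
Differences in log2 signal between the drug groups for the 3 genes, as limma estimates (points) with 95% confidence intervals (bars). All 9 intervals include 0.

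The groups were spread unevenly over slides, each of which carries 4 arrays. Both Sham arrays shared a slide with Naïve 1 and 2, and all 3 TBI arrays shared another with Naïve 3. Slide and injury can therefore not be told apart in TBI vs Sham. On the slide that TBI+JM6 1 shared with all 3 TBI+PMI-006 arrays, the difference TBI+JM6 minus TBI+PMI-006 was 0.40 for Lcn2, -0.70 for Serpina3n and -1.40 for Spp1. These signs are opposite to those over all arrays (-0.22, 0.26 and 0.21), and they rest on 1 TBI+JM6 rat. On the slide that held TBI+JM6 2 and 3 and both TBI+E33 arrays, TBI+JM6 minus TBI+E33 was -1.16 for Lcn2, 0.98 for Serpina3n and 1.69 for Spp1, with the same signs as over all arrays. In limma on these 2 groups with slide as a fixed block, the unadjusted p-values were 0.00559 for Lcn2, 0.156 for Serpina3n and 0.00527 for Spp1, and the adjusted p was 0.999 for each. TBI rats differed from Naïve 3, on the slide they shared, by 7.38 for Lcn2. With Naïve 3 at its floor they lay at least 164-fold above it for Serpina3n and at least 206-fold for Spp1.

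Over the 8 drug-treated rats, Lcn2 and Serpina3n tended to run in opposite order. Pearson's r was -0.73 (exact permutation p = 0.0306, 0.0917 after Benjamini-Hochberg adjustment over 3 pairs) and Spearman's rho was -0.55 (exact p = 0.171, adjusted 0.513), so neither passed after adjustment. Without TBI+JM6 3 and TBI+E33 2, the rats farthest from the median Lcn2 signal, r was -0.83 over 6 rats. For Lcn2 and Spp1, r was -0.17 (exact permutation p = 0.678) and rho 0.07 (p = 0.882), and r was 0.05 without the same rats. For Serpina3n and Spp1, r was 0.33 (exact permutation p = 0.468) and rho 0.10 (p = 0.840), and r was -0.25 without TBI+JM6 1 and TBI+JM6 3. All tests were two-sided, and the adjusted p-values of the last 2 pairs were 0.678 for r and 0.882 for rho. With each slide's mean subtracted, r was -0.76 for Lcn2 and Serpina3n (exact permutation within slides, p = 0.0694, adjusted 0.208), -0.16 for Lcn2 and Spp1 (p = 0.684) and 0.28 for Serpina3n and Spp1 (p = 0.514). The plot of gene pairs shows the values.

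**Figure D4:**
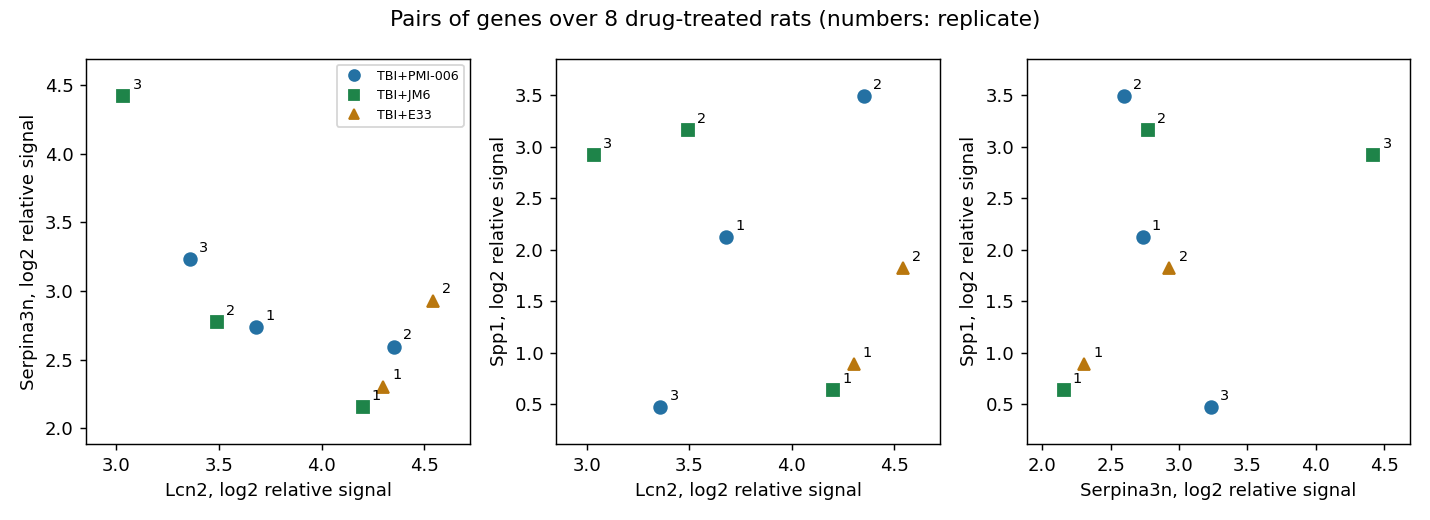
Log2 relative signal of each pair of the 3 genes in 8 drug-treated rats, with the replicate number beside each point and symbols for the drug. TBI+JM6 3 has the lowest Lcn2 and the highest Serpina3n signal, and TBI+PMI-006 2 and 3 have the highest and the lowest Spp1 signal.

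The genes with the most similar profile were found among 13439 genes by the root mean square difference in log2 signal from each of the 3 genes, after both were centred on their mean over 16 arrays. For Lcn2 these were Ccl2 (1.12), Slpi (1.19), Lgals3 (1.22), Clec4a2 (1.23) and Igsf7 l1 (1.24), against a median of 3.43 over all genes. Ccl2 encodes a chemokine that draws monocytes, Slpi a secreted protease inhibitor and Lgals3 galectin 3. For Serpina3n they were Spp1 (1.29), Ccl7 (1.5), Ccl2 (1.56), Lcn2 (1.68) and Igsf7 l1 (1.77), against a median of 4.36. For Spp1 they were Ccl2 (1.23), Ccl7 (1.27), Serpina3n (1.29), Igsf7 l1 (1.29) and Lcn2 (1.29), against a median of 3.67. Each of the 3 genes was thus among the 5 nearest of at least 1 of the others. The measure includes the injury difference by which the 3 genes were chosen, and Ccl2 and Ccl7 were well above background on 13 of the 16 arrays.

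**Figure D5:**
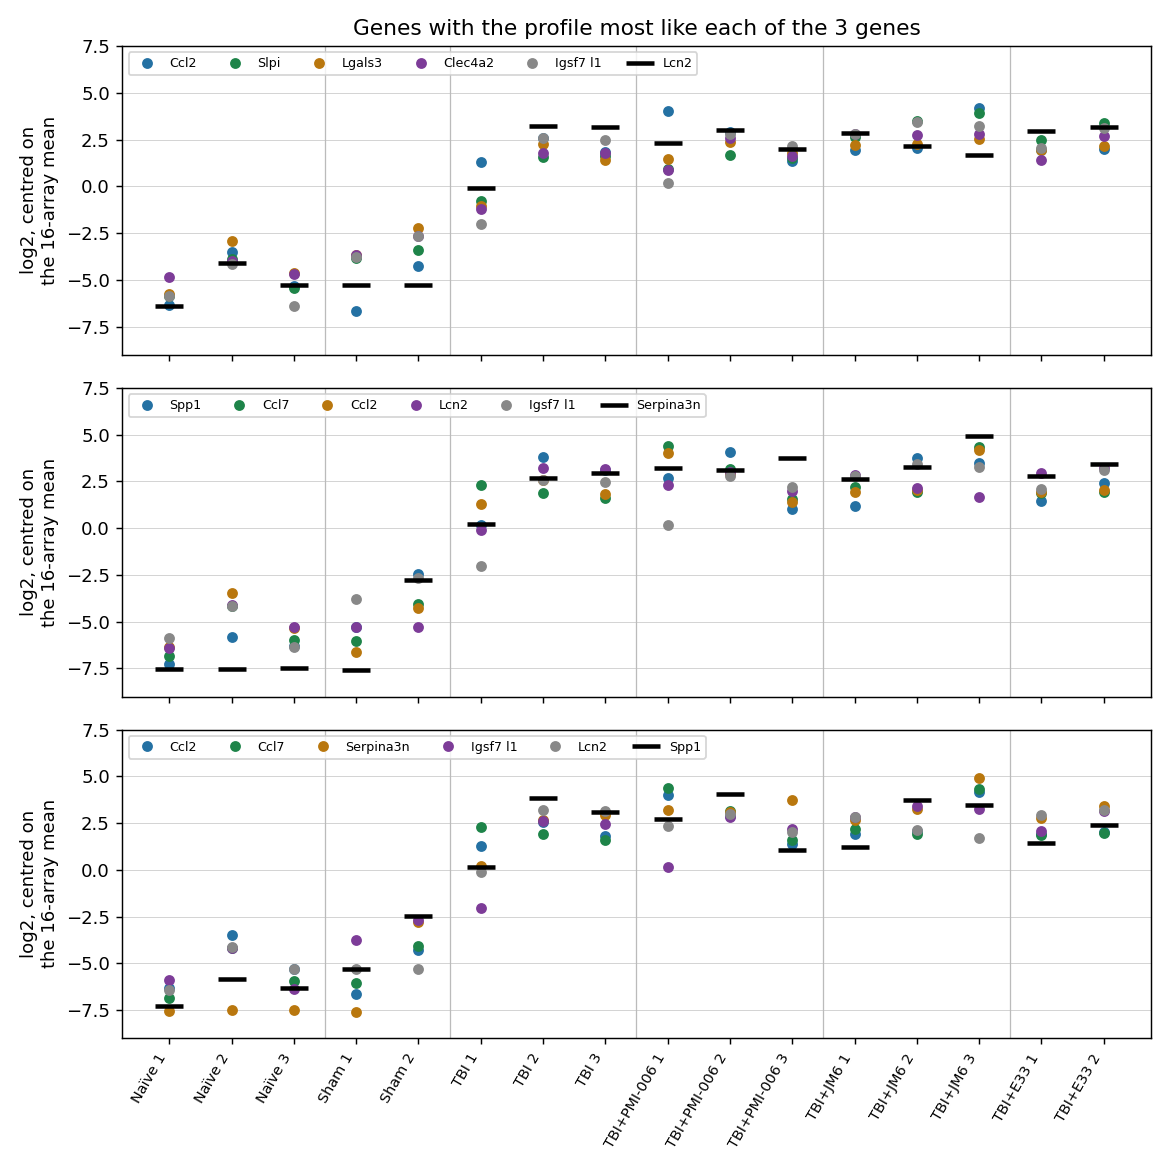
Log2 signal on 16 arrays, centred on the mean over the arrays, of each of the 3 genes (black bars) and the 5 genes with the most similar profile (coloured points). Vertical lines separate the groups, and TBI 1 lies below TBI 2 and TBI 3 for each of the 3 genes.

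Genes that act with the 3 proteins were taken from lists drawn up with earlier results of these data known, and tested in TBI vs Sham. There limma called 2.92% of the tested probes higher and 6.48% lower in TBI, with a median difference of -0.03 over all tested probes. The counts of list genes are therefore descriptive and give no independent support, and slide and injury cannot be told apart in this comparison. Of the 178 list genes tested, 17 rose and 14 fell. These calls are fragile: without Sham 1 they fell to 2 and without the 3 arrays with high choroid plexus markers to 3, while Hspb1 was called under 27 of the 29 alternatives and Cd44 under 25. Of 4 tested receptors and partners of Lcn2 none was called, with 1 at an unadjusted p under 0.05. This was the brightest, Slc22a17, which encodes a lipocalin 2 receptor, with a difference of -0.46 ± 0.19 (SE, adjusted p = 0.142), and for Mmp9, the protease that lipocalin 2 binds, it was 0.91 ± 0.55 (adjusted p = 0.324). Mmp9 was well above background on 2 of 3 TBI and 1 of 2 Sham arrays, so its difference rests in part on background signal.

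Of 17 tested genes of iron and haem handling, 1 rose, and their median difference was 0.03. It was Hmox1, which encodes the haem-degrading enzyme heme oxygenase 1, at 2.78 ± 0.81 (SE, limma adjusted p = 0.0490), a call made under 11 of the 29 alternatives. Fth1, the ferritin heavy chain gene, differed by 0.03 ± 0.22 (adjusted p = 0.949). Of 11 other serpins tested, none rose and 2 fell, with a median difference of 0.36. They were Serpine2, which encodes the thrombin inhibitor protease nexin 1 (-1.06 ± 0.24, adjusted p = 0.0216), for which Sham 2 had no usable spot and Sham 1 stood alone, and Serpinb9, which encodes a granzyme B inhibitor (-0.90 ± 0.20, adjusted p = 0.0201). The Serpinb9 means in Naïve, Sham and TBI rats were -3.16, -2.18 and -3.08, while for Serpine2 the TBI mean of -0.11 lay below the Naïve mean of 0.63. The probes for the close Serpina3n relatives Serpina3c, Serpina3k (1 shared probe) and Serpina3m were well above background on 0 of 16 arrays. Of 3 tested proteases that serpins of this type inhibit, none was called and none reached an unadjusted p under 0.05 in limma. Prtn3, which encodes proteinase 3, differed by -0.33 ± 0.37 and Gzmb, which encodes granzyme B, by 0.17 ± 0.82. Prtn3 was well above background on 1 of 3 TBI arrays and Gzmb on 1 of 3 TBI and 1 of 2 Sham arrays. Both differences thus rest in part on background signal and do not show a lack of change.

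Among 11 tested receptors of osteopontin, Cd44 rose by 2.77 ± 0.39 (SE, limma adjusted p = 0.00509) and the others were not called. Itgb1, the integrin beta 1 gene, differed by 0.39 ± 0.25 (adjusted p = 0.349). Of 6 tested enzymes that cleave or cross-link osteopontin none was called, with 2 at an unadjusted p under 0.05, and the brightest, Tgm2 (transglutaminase 2) and Mmp9, had differences of 0.83 ± 0.50 and 0.91 ± 0.55. Of the 3 tested relatives of Spp1 in the SIBLING family of matrix proteins none was called, and none reached an unadjusted p under 0.05. Mepe and Ibsp had differences of -0.70 ± 0.50 and -0.32 ± 0.51.

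Of 23 tested genes of upstream cytokine signalling, 4 rose and none fell, with a median difference of 0.94. Among them was Osmr, which encodes the oncostatin M receptor and was well above background on 2 of 3 TBI and 0 of 2 Sham arrays and was at least 2.49-fold higher (limma adjusted p = 0.0311). Tnf, well above background on 1 of 2 Sham arrays, rose by 2.45 ± 0.56 (SE, adjusted p = 0.0207), Stat3 by 1.86 ± 0.33 (adjusted p = 0.00895) and Tnfrsf1a, a TNF receptor gene, by 1.47 ± 0.28 (adjusted p = 0.0123). Of 11 genes known as common to reactive astrocytes, 6 rose and the median difference was 2.49. Cd44 and Osmr, already named from other lists, are among the 6. Hspb1, which encodes a small heat shock protein, rose by 4.84 ± 0.59 (adjusted p = 0.00399), Timp1, a metalloprotease inhibitor gene, by 3.88 ± 0.76 (adjusted p = 0.0126) and Aspg, well above background on 1 of 2 Sham arrays, by 3.23 ± 0.65 (adjusted p = 0.0138). The differences of Tnf and Aspg thus rest in part on background signal. Between the drug groups limma called 0 of 85 tested genes of these pathway lists in each of the 3 comparisons. At an unadjusted p under 0.05 limma passed 1 in TBI+JM6 vs TBI+PMI-006, 11 in TBI+E33 vs TBI+PMI-006 and 2 in TBI+JM6 vs TBI+E33, and the methods' t-test passed 3, 7 and 4 and after Benjamini-Hochberg adjustment 0 in each. Over all tested probes the limma share at this unadjusted cutoff was 8.84%, 15.0% and 2.81%, so nothing is read from these counts.

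Markers of cells that can make the 3 proteins were counted in the same comparison. Of 7 tested neutrophil markers 2 rose, S100a8, well above background on 1 of 2 Sham arrays, by 3.77 ± 0.66 (SE, limma adjusted p = 0.00991) and S100a9 by 2.95 ± 0.80 (adjusted p = 0.0388), while Mpo and Mmp8 were well above background on 0 of 16 arrays. Their summed signal lay between 0.140 and 0.169 times the 75th percentile on the Naïve arrays, between 0.250 and 1.52 on the Sham arrays, between 0.368 and 3.03 on the TBI arrays and between 1.23 and 3.22 on those of drug-treated rats. The highest Sham sum, on Sham 1, was mostly Elane, which had a log2 signal of 0.45 there and was well above background on no other array. Of 10 monocyte and macrophage markers 4 rose, among them Cd14 by 3.09 ± 0.65 (adjusted p = 0.0155), Cd68 by 2.68 ± 0.60 (adjusted p = 0.0196), Gpnmb by 2.47 ± 0.57 (adjusted p = 0.0216) and the scavenger receptor gene Msr1, which was at least 5.31-fold higher with 0 of 2 Sham arrays well above background (adjusted p = 0.00827). The sum of these markers lay between 1.29 and 1.33 on Naïve, between 1.65 and 2.5 on Sham, between 2.74 and 11 on TBI arrays and between 12.1 and 21.7 on those of drug-treated rats. Of 10 microglia markers Itgam rose by 1.40 ± 0.29 (adjusted p = 0.0149), and Tmem119 and P2ry12, genes of resting microglia, fell by 2.17 ± 0.39 (adjusted p = 0.00925) and 1.41 ± 0.28 (adjusted p = 0.0130). The Naïve, Sham and TBI means were -2.10, -1.15 and -3.32 for Tmem119 and -1.17, -0.12 and -1.53 for P2ry12. None of 10 astrocyte markers was called, with 3 at an unadjusted p under 0.05, and the brightest, Aldoc and S100b, had differences of -0.47 ± 0.23 and -0.67 ± 0.20. The part of these cells in the signal of Lcn2, Serpina3n and Spp1 was not tested.

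Of 10 neuron markers 3 fell, Slc17a7 by 1.43 ± 0.34 (SE, limma adjusted p = 0.0234), Snap25 by 0.68 ± 0.19 (adjusted p = 0.0412, a call made under 7 of the 29 alternatives) and Rbfox3, which was at least 1.97-fold lower with 0 of 3 TBI arrays well above background (adjusted p = 0.0260). Of 9 tested hippocampal markers Calb1 fell by 1.11 ± 0.30 (adjusted p = 0.0379), and Nrgn differed by -0.72 ± 0.27 (adjusted p = 0.117). Of 10 oligodendrocyte markers 3 fell, among them Mobp by 1.95 ± 0.42 (adjusted p = 0.0166) and Cnp by 1.28 ± 0.24 (adjusted p = 0.0120). In each of the lists of endothelial, meningeal and fibroblast, and red blood cell markers 1 gene fell: Cldn5 by 1.23 ± 0.33 (adjusted p = 0.0351), Dcn by 1.81 ± 0.31 (adjusted p = 0.00827) and Ahsp by 1.94 ± 0.54 (adjusted p = 0.0413). Naïve, Sham and TBI means were -0.03, 1.01 and -0.22 for Cldn5 and -4.09, -2.68 and -4.62 for Ahsp, again highest in Sham. For Dcn they were -0.94, -0.96 and -2.77. None of the 7 tested choroid plexus markers was called, with 2 at an unadjusted p under 0.05, and the brightest, Ttr and Folr1, had differences of -5.36 ± 2.45 and -2.78 ± 1.66, with Sham 1 among the arrays of high signal.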

How the data were processed

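Hippocampal RNA of 16 rats was measured on an Agilent single-colour rat array, and the deposited scanner files give each spot's intensity, made by the authors with Feature Extraction 9.5.3.1, background subtracted and not scaled between arrays. The authors' deposited matrix gives, for each array, the ratio of signal to its 75th percentile, and was used as an alternative. Labels give 2 kits for RNA amplification without saying which rat had which. Spots flagged as outliers were left out, the rest averaged by probe, divided by the array's 75th percentile of probes well above background, and log2 taken. The 22827 probes well above background on all arrays of at least 1 group were tested in 1 limma 3.58.1 model over all arrays (10 residual degrees of freedom) in R 4.3.3, with Benjamini-Hochberg adjustment and calls at an adjusted p under 0.05. The model was tested on simulated data. SciPy 1.17.1 gave exact permutation tests. The members and lists were chosen with earlier results of these data known. From each list the text names up to 4 called genes with the largest difference in TBI vs Sham, or else the brightest up to 2. A gene that this rule would name is not reported here. Symbols were updated through a RefSeq table for 68.1% of probes, and its coordinates were used only for promoter windows. The number of arrays limits precision.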

Additional observations from a re-analysis of the deposited data

How the results depend on the processing

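Alternatives were a normexp background correction, quantile normalization, scaling to all probes' 75th percentile, other filters on dim probes, the authors' matrix, the methods' t-test, limma fitted to only the 2 compared groups, slide or replicate blocks, averaging a gene's probes, and each array left out. Leaving out the 3 arrays with high choroid plexus markers and subtracting slide means before the correlations were chosen after seeing the data. In drug groups vs Naïve all 3 genes were called under each of these except the filter for probes well above background on all 16 arrays, which left 1 gene tested and called (Lcn2) in each comparison. Between drug groups 0 of 3 genes were called under each of them, and 0 pathway genes under normexp, quantile normalization and the percentile over all probes. The list genes called in TBI vs Sham numbered 31, against 1 after normexp, 0 with the methods' t-test after Benjamini-Hochberg, 0 with limma on the 2 groups alone, 48 with slide as a random block, 3 without the 3 choroid plexus arrays, and 2 to 55 with single arrays left out (2 without Sham 1, 14 without Sham 2, 55 without TBI 1, 14 without TBI 2 and 10 without TBI 3). The Serpina3n difference between TBI and Sham ranged from 4.73 to 9.53 with single arrays left out and was 4.73 without the 3 choroid plexus arrays, and that of Spp1 ranged from 4.82 to 7.67. Against Naïve, normexp gave 5.65 for Serpina3n and 5.86 for Spp1, and the authors' matrix gave 5.86 for Spp1. With group means subtracted, Pearson's r for Lcn2 and Spp1 was 0.0450, against -0.171. Where an array left out left 1 in its group, the lone array was taken to vary as the other groups do. The cause of these changes was not tested.

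Replicate numbers name different rats, and deviations of same-numbered arrays correlated at -0.19 to 0.18 over 17 pairs, with 2 above 0.1. A replicate block, which assumes a pairing that the labels do not state, gave 3 of 3 genes in each drug group vs Naïve, 0 of 3 between drug groups, and 27 list genes.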
